A study of Mus musculus with 12 samples.

Results

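GFP-positive and GFP-negative cells sorted from the olfactory mucosa of odor-stimulated mice were compared gene by gene. The comparison used the 6 arrays of the odor mice, of 12 arrays in the series, and covered 19938 genes, each represented by 1 probe set that carries a single gene symbol. All mice carried the S100a5-tauGFP reporter, in which a green fluorescent protein fused to the microtubule protein tau marks cells that use S100a5. They were 7 to 12 weeks old and of both sexes, and 18 were housed singly in chambers supplied with clean air for 40 hours. From 26 hours on, the odor mice were given odorant for 10 seconds every 20 minutes, a 5% citrus blend of perfumery, and the vehicle mice received filtered air. Mucosa from 3 mice was pooled, dissociated and sorted, so that each pool gave 1 GFP-positive and 1 GFP-negative array. The odor pools carry the replicate numbers 2, 3 and 4, and the fractions of 1 pool were compared with each other. The GFP-negative fraction holds every cell of the dissociated mucosa below the gate, neurons included. The gate itself was not stated.

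The olfactory epithelium contains olfactory sensory neurons, the basal cells that replace them, sustentacular (supporting) cells, microvillous cells and Bowman's glands, above a stroma with glia, vessels and leukocytes. A mature sensory neuron expresses a single odorant receptor, which signals through the G protein subunit Gnal, the adenylyl cyclase Adcy3, a cyclic nucleotide-gated channel and the chloride channel Ano2, all in its cilia. S100a5 encodes a calcium-binding protein of these neurons, and its transcription is known to rise with their activity.

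Values are log2 array signals, and a difference of 1 on this scale is 2-fold. Every difference is GFP-positive minus GFP-negative over 3 pools, with its standard error (SE), and a gene was called where its adjusted p was under 0.05 (limma with Benjamini-Hochberg adjustment over all genes). Arrays of 1 fraction correlated with r from 0.994 to 0.996 (GFP-positive) and from 0.986 to 0.992 (GFP-negative), and arrays of different fractions with r from 0.883 to 0.938. Pool 2 stood apart in its GFP-negative array. There the 19 odor transduction and mature neuron genes averaged 12.18, against 11.92 and 11.82 in pools 3 and 4. The 27 macrophage and antigen presentation genes averaged 10.17, against 10.51 and 10.75. The values carry no call of detection above background. The lower quartile of the genes compared lay between 6.25 and 6.39 on the odor arrays, and where the lower fraction of a gene lies under it, the size of the difference is that of the measured signals only. In bulk samples such as these, fewer cells of a type and less RNA per cell cannot be told apart.

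The fractions differed widely, and the largest differences ran in opposite directions for different kinds of genes. Of 19938 genes 10243 were called (51.4%), 6556 higher (32.9%) and 3687 lower (18.5%) in GFP-positive cells. With cyclic loess scaling the counts were 4129 higher and 4782 lower, and the median difference of all genes moved from 0.13 to 0.02, so the balance of directions depends on how the arrays are scaled. Genes called and at least 2-fold apart numbered 1975 (9.91%), with 436 higher (2.19%) and 1539 lower (7.72%). Without pool 2 the 2-fold higher genes numbered 655. Of the 436 higher genes 362 were odorant receptors. Once all chemosensory receptor families were set aside, 70 of 18729 genes were at least 2-fold higher and 1448 at least 2-fold lower. No gene rose 16-fold, and 57 fell at least 16-fold, 13 of them with a GFP-positive mean under the lower quartile of every odor array. The highest and the lowest array of 3 did not overlap between fractions for 12105 genes (60.7%).

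**Figure D1:**
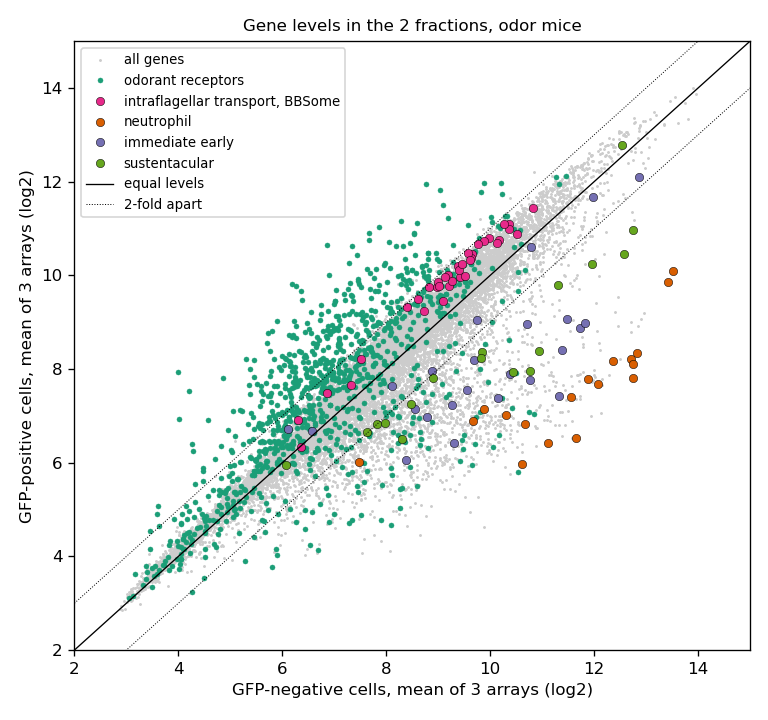
Mean log2 value of each of 19938 genes in the GFP-negative (horizontal axis) and GFP-positive (vertical axis) arrays of the odor mice, 3 arrays per mean, with 5 groups of genes in colour. The solid line marks equal levels and the dotted lines a 2-fold difference; odorant receptors spread far to both sides, ciliary transport genes lie in a band just above the line, and neutrophil genes and most immediate early and sustentacular genes lie below it.

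Genes of odor transduction and of mature neurons, listed together as transduction genes here, were higher in GFP-positive cells by modest amounts. Of 19 genes 18 rose, 0 fell and 1 was not called, with a median difference of 0.59 against 0.13 for all genes. Adcy3 read 12.82, 12.82 and 12.81 in the GFP-positive arrays of pools 2, 3 and 4 and 12.34, 12.09 and 12.01 in the GFP-negative arrays. The fractions did not overlap, and the GFP-positive arrays were the more uniform; the difference was 0.67 (SE 0.09, adjusted p = 0.000325). Kcnmb3, a subunit that modulates calcium-activated potassium channels, read 11.28, 11.13 and 11.20 against 10.10, 9.79 and 9.52. It was the only member that rose at least 2-fold, by 1.40 (SE 0.13, adjusted p = 3.47e-05). Pde1c and Pde4a, phosphodiesterases that break down cyclic nucleotides, rose by 0.93 (SE 0.12) and 0.78 (SE 0.10), and Ano2 rose by 0.77.

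The same list holds markers of mature neurons, which were high in both fractions. Omp, which encodes olfactory marker protein, read 13.46, 13.51 and 13.48 in GFP-positive cells and 13.29, 13.14 and 13.05 in GFP-negative cells. The fractions did not overlap, but the difference was 0.33 (SE 0.08, adjusted p = 0.00844), and the call was lost without pool 3 or pool 4. Its values lie near the top of the scale, since the highest signal on any odor array was 14.02 to 14.12. Stoml3, a stomatin-like protein of olfactory cilia, read 13.84 to 14.02 over all 6 arrays and was not called (difference 0.11, SE 0.07). Mature neuron genes thus gave high signal in GFP-negative cells too, and the share of neurons in that fraction was not tested.

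The promoter of Pde4a that holds matches to the O/E motif is shown as an example of the transduction genes. Promoter sequences here and further on are the 250 bases before a RefSeq transcript start in mouse build GRCm38.p6, written 5′ to 3′ on the strand of the gene. Motifs were searched on both strands, and windows were found for 15614 of the 19938 genes. Capitals mark CCCNNGGG, the core bound by the O/E (Ebf) factors of sensory neurons.
Pde4a (chr9:21183851-21184100, plus strand): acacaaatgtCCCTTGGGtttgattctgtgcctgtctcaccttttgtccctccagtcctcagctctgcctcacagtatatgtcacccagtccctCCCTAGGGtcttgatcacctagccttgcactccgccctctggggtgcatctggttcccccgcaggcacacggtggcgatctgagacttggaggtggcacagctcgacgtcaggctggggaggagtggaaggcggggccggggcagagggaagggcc
The motif was in 34.8% of 23 windows of the transduction list (8 of 23) and in 13.9% of 19177 windows of all genes. A match describes these letters only and shows no binding.

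Most genes listed as activity-dependent in sensory neurons rose. Of 9 genes 8 rose, 5 of them at least 2-fold, and 1 fell, with a median difference of 1.05. Kirrel2, an adhesion molecule that helps sort axons of neurons with different activity, read 12.04, 12.31 and 12.26 in GFP-positive cells and 11.03, 10.90 and 10.63 in GFP-negative cells. All 3 GFP-positive arrays were at least 2-fold above their GFP-negative partners, and the difference was 1.35 (SE 0.11, adjusted p = 1.43e-05). Pcdh10, a protocadherin, read 8.79, 8.97 and 8.85 against 7.29, 7.48 and 7.55, a rise of 1.43 (SE 0.08, adjusted p = 1.71e-06). Lrrc3b rose by 1.40, the potassium channel Kcnn2 by 1.24, Plcxd3 by 1.04, Pcp4l1 by 0.95 and the vesicular glutamate transporter Slc17a6 by 0.92. Rasgrp4, a Ras activator also known from mast cells, fell by 0.70 (SE 0.16).

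S100a5, the gene behind the reporter, differed little. It read 6.41, 6.34 and 6.32 in GFP-positive cells and 6.16, 6.14 and 5.83 in GFP-negative cells. The fractions did not overlap, the difference was 0.31 (SE 0.08, adjusted p = 0.0123), or 1.24-fold, and the call was lost without pool 4. The GFP-negative arrays lie under the lower quartile of the genes compared and the GFP-positive arrays just above it, and how far this probe set reports S100a5 transcripts was not tested.

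Since neuronal genes rose together, the neuronal and receptor lists were also expressed relative to the mean of the 19 transduction genes in each array. Omp and Stoml3 are themselves among these 19. On that scale 7 of the 9 activity-dependent genes were still called higher, with a median of 0.46. Pcdh10 was higher by 0.84 (SE 0.13), Lrrc3b by 0.81, Kirrel2 by 0.76 and Kcnn2 by 0.65. S100a5 was at -0.28 (SE 0.12, adjusted p = 0.0545) and Omp at -0.26 (SE 0.11, adjusted p = 0.0432) relative to the transduction genes. For both the sign thus turned with the scaling. Genes listed as higher in less active neurons did not move as 1 group. Epha5, an ephrin receptor, rose by 1.37, the fatty acid receptor Cd36 by 0.90, the deacetylase Hdac9 by 0.50 and Kirrel3, a relative of Kirrel2, by 0.33. The fractions overlapped for Kirrel3, and its call was lost without pool 3 or pool 4. Relative to the transduction genes Hdac9 (-0.09) and Kirrel3 (-0.26) also turned sign, whereas Epha5 stayed higher by 0.78. Calb2, the calcium-binding protein calretinin, fell. Its GFP-positive arrays read 9.79, 9.83 and 9.70 and its GFP-negative arrays 11.76, 11.42 and 11.53, a difference of -1.80 (SE 0.09, adjusted p = 7.4e-07). Every GFP-negative array was above every GFP-positive one.

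Immediate early genes, which respond within minutes to activity and to many other stimuli, went the opposite way. Of 24 genes 21 fell, 16 of them at least 2-fold, 1 rose and 2 were not called, with a median difference of -1.92. Fos read 7.90, 9.22 and 9.48 in GFP-positive cells and 11.30, 11.85 and 12.05 in GFP-negative cells. Every GFP-negative array was above every GFP-positive one, and the array of pool 2 was the lowest of its fraction in both. The difference was -2.86 (SE 0.15, adjusted p = 9.43e-07), 7.28-fold. Egr2 had GFP-positive values of 7.07, 7.63 and 7.61 and GFP-negative values of 10.76, 11.59 and 11.62, a fall of 14.8-fold. Egr1 (-2.41), Btg2 (8.02-fold lower), Fosb (-2.98) and Ier3 (-2.88) fell as well. Many of these genes are also expressed by leukocytes, whose own genes fell in the same arrays, and the share of that source was not tested.

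Npas4, a transcription factor induced in neurons by calcium entry, was the only 1 of the 24 that rose, and it was singled out after its values were seen. It read 6.68, 6.85 and 6.62 in GFP-positive cells and 6.14, 6.21 and 5.97 in GFP-negative cells. Its GFP-negative arrays lie under the lower quartile of the genes compared and its GFP-positive arrays not far above it. The fractions did not overlap and the difference was 0.61 (SE 0.07, adjusted p = 0.000152). In vehicle mice it was 0.26, and the change between treatments was not called (adjusted p = 0.917).

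**Figure D2:**
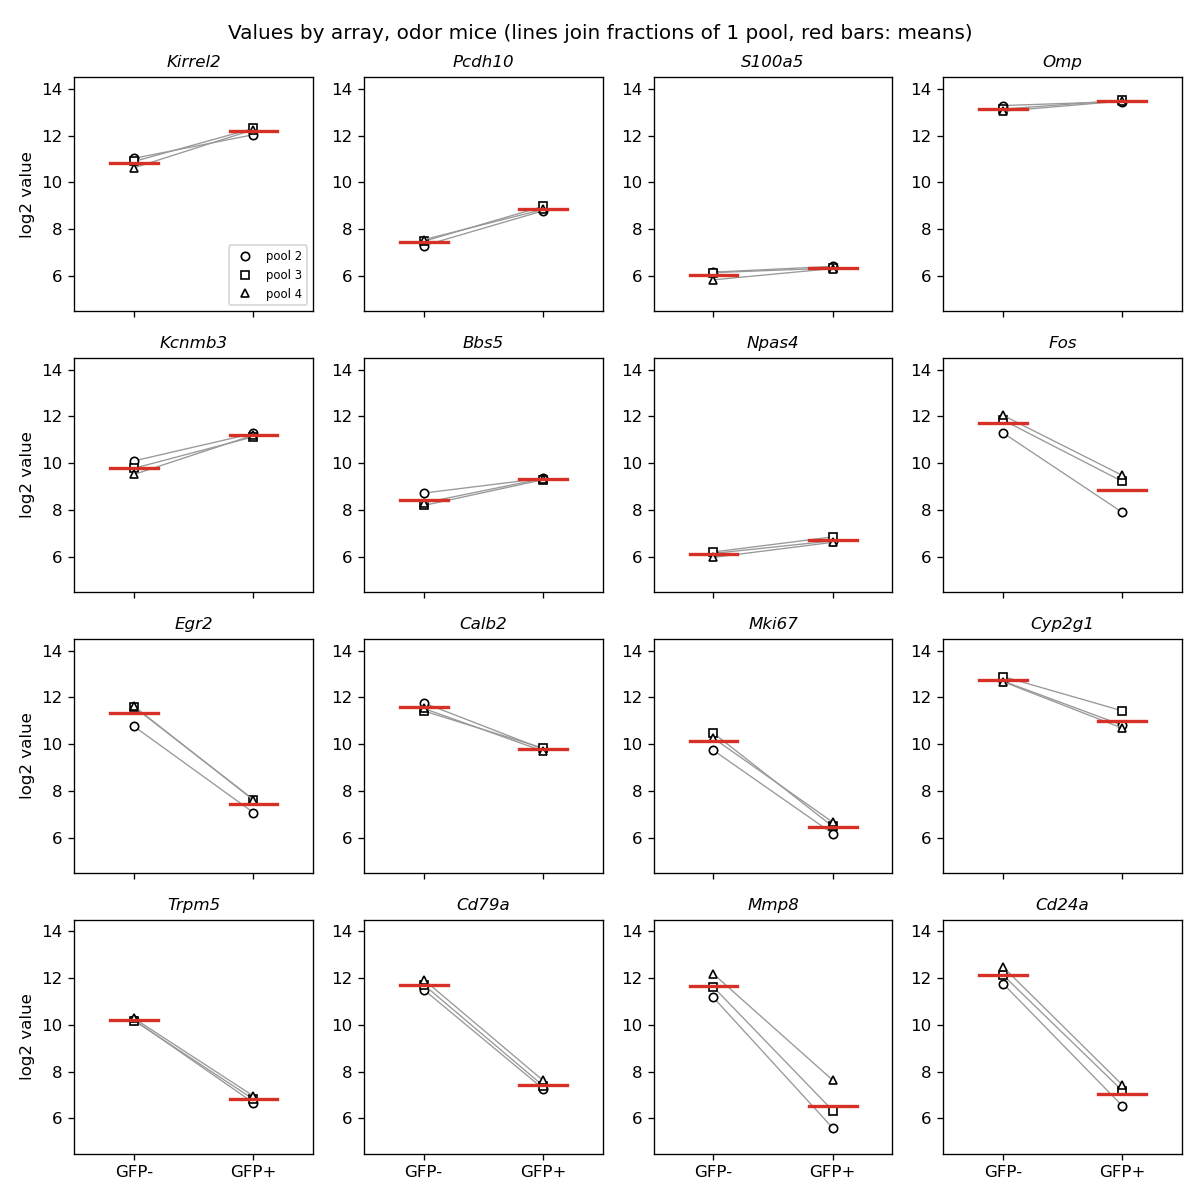
Log2 values of 16 genes in the GFP-negative and GFP-positive arrays of odor pools 2, 3 and 4; grey lines join the fractions of a pool, red bars are means of 3 arrays, and levels of different genes are not comparable. Kirrel2, Pcdh10 and Kcnmb3 rise in each pool, S100a5 and Omp change little, and Mmp8 and Cd24a fall by more than 4 log2 units in each pool.

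Promoters of S100a5, Pcdh10 and Fos are shown side by side because the 3 genes are used as readouts of neuronal activity yet differed in size and direction between the fractions. Capitals mark TGACG, the core of the cAMP response element (CRE), which is contained in the full element TGACGTCA.
S100a5 (chr3:90608272-90608521, plus strand): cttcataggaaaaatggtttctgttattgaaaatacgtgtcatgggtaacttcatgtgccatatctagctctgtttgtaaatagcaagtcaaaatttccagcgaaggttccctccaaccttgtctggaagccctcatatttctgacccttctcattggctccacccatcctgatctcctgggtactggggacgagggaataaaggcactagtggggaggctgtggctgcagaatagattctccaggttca
Pcdh10 (chr3:45378148-45378397, plus strand): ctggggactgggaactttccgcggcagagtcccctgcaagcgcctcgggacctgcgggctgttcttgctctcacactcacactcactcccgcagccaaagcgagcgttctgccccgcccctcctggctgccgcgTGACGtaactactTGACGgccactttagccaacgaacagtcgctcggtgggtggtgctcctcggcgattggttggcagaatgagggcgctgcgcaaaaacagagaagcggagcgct
Fos (chr12:85473640-85473889, plus strand): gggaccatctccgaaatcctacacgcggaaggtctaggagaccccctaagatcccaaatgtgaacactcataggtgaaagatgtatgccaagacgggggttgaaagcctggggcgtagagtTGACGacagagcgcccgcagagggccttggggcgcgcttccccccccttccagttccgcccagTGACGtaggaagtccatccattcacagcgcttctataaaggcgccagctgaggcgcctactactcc
The S100a5 window held 0 matches, and the Pcdh10 and Fos windows held 2 each. TGACG was in 21.4% of all windows, in 69.6% of those of immediate early genes (16 of 23) and in 37.5% of those of the activity-dependent list (3 of 8). Of the 14 immediate early genes with these letters in a window 12 fell, 1 rose and 1 was not called, and of the 5 without them 4 fell. All 3 activity-dependent genes with these letters rose, as did all 4 whose windows lacked them.

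Genes of ciliary transport rose almost as a block. Intraflagellar transport particles and the BBSome, a complex of Bardet-Biedl proteins, carry membrane proteins along cilia. Of 36 such genes 35 rose, 0 fell and 1 was not called, with a median difference of 0.73 and a narrow range from -0.02 to 0.93. Bbs5, a BBSome subunit, read 9.36, 9.30 and 9.35 in GFP-positive cells and 8.72, 8.19 and 8.30 in GFP-negative cells. The fractions did not overlap, pool 2 had the smallest gap, and the difference was 0.93 (SE 0.12, adjusted p = 0.00023). Dync2h1, the motor of retrograde transport, rose by 0.93, Ttc8 by 0.90 and Wdr35 by 0.90. Ttc21b was the member that was not called (difference -0.02). Relative to the transduction genes 7 of the 36 were called higher and 1 lower, with a median of 0.14.

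Genes of motile cilia, which are textbook markers of respiratory ciliated cells, also rose. Of 32 genes 23 rose, 1 fell and 8 were not called, and the median difference was 0.67. Rsph4a, a radial spoke protein, read 10.98, 10.96 and 11.02 against 10.16, 10.06 and 9.84, a rise of 0.97 (SE 0.12, adjusted p = 0.000222). The sperm-tail protein gene Tekt4 rose by 0.96, the dynein heavy chain Dnah11 by 0.95 and Ccdc39 by 0.93. Foxj1, the transcription factor of ciliated cells, rose by 0.66. Several dynein heavy chain genes of the same axonemes did not move with them: Dnah6 fell by 0.21, and Dnah1, Dnah3 and Dnah12 had differences of 0.07 to 0.08 without a call. The call of Dnah6 was lost without pool 2, pool 3 or pool 4, and without the pool as a block. Sntn, a marker of the tip of respiratory cilia, had a difference of 0.05 and was not called.

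The promoter of Hydin, a central-pair gene of motile cilia that rose by 0.74 (SE 0.08), is shown with GTTGCC in capitals, a core of the X-box bound by the Rfx factors of ciliated cells. This motif was chosen after the data were seen.
Hydin (chr8:110266727-110266976, plus strand): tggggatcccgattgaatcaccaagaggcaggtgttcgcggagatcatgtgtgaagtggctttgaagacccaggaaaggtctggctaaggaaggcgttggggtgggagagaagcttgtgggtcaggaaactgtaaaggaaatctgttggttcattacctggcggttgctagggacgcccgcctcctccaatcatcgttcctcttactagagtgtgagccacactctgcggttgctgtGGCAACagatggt
The match lies on the complementary strand, so the capitals read GGCAAC. This motif was in 36.7% of the 30 windows of motile cilia genes, in 21.9% of the 32 windows of ciliary transport genes and in 10.2% of all windows.

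Synaptic and axonal genes mostly rose, and channel genes stayed near the share of all genes. Of 24 genes of the presynaptic terminal 22 rose and 0 fell (median 0.65). Sv2b, a synaptic vesicle glycoprotein, read 10.33, 10.38 and 10.43 against 9.57, 9.12 and 9.28, a rise of 1.06 (SE 0.12). Syn2 rose by 0.95 and Syngr1 by 0.93. Of 117 genes of voltage-gated and potassium channels 49 rose, 10 fell and 58 were not called (median 0.22), so that 41.9% were higher, against 32.9% of all genes with a median of 0.13. With cyclic loess 42 channel genes rose and 16 fell. Scn4b, a sodium channel beta subunit, read 11.61, 11.68 and 11.66 against 10.62, 10.32 and 10.18. Its fractions were nearly 1 log2 unit apart at the nearest arrays, and it rose by 1.28. Kcnj13, a potassium channel of transporting epithelia, fell by 1.53.

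Of 51 axon guidance and adhesion genes 37 rose, 5 fell and 9 were not called (median 0.47), and 3 fell without pool 3 or without pool 4. Beside Pcdh10, Epha5 and Kirrel2, the ephrin receptor gene Epha7 rose by 1.21 (SE 0.14), the plexin Plxna3 by 1.03 and the semaphorin Sema7a by 1.02. The plexin Plxnc1, which leukocytes also express, read 5.72, 6.19 and 6.08 against 8.28, 8.91 and 9.20 and fell by 2.80, with its GFP-positive arrays under the lower quartile. Relative to the transduction genes the list split into 8 higher and 16 lower, with a median of -0.11. The largest rise of any gene outside the receptor families was that of Steap2, a metalloreductase. It read 8.54, 9.11 and 9.22 against 7.51, 7.00 and 7.54, and rose by 1.60 (SE 0.17, adjusted p = 6.8e-05). The smallest of its 3 gaps was in pool 2.

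**Figure D3:**
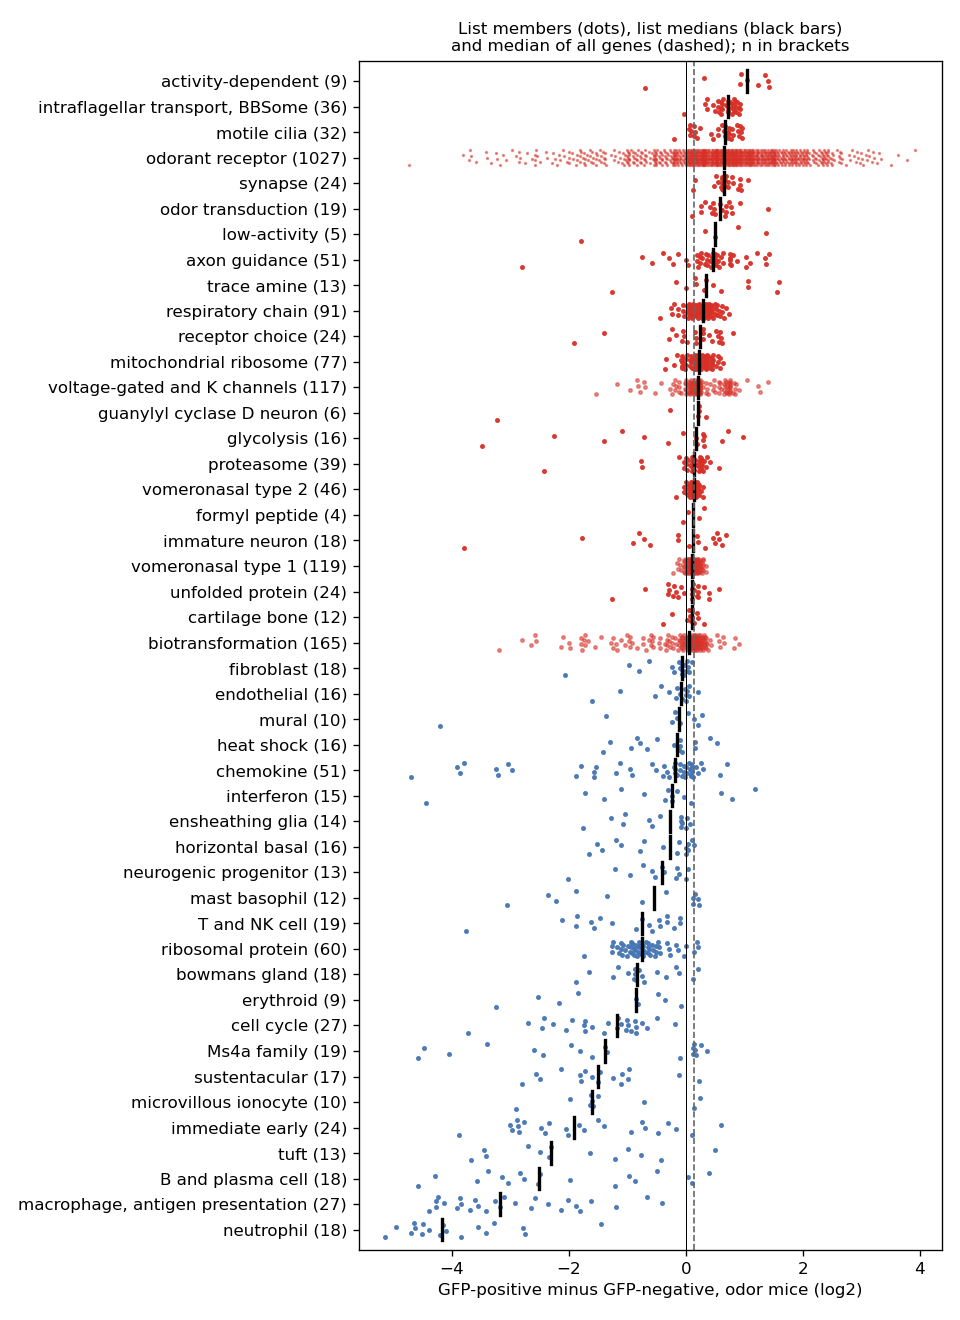
Difference between GFP-positive and GFP-negative cells (log2, odor mice) for every member of 46 gene lists, ordered by the list median (black bars); the dashed line is the median of all genes, 0.13. Activity-dependent, ciliary and synaptic genes lie to the right of 0, odorant receptors span the widest range, and leukocyte lists reach the lowest values.

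Of 24 regulators of receptor choice and neuronal identity 12 rose, 3 fell and 9 were not called (median 0.24), and with cyclic loess 7 fell. The homeodomain factor Emx2 rose by 0.81 (SE 0.09) and the Ebf family member Ebf4 by 0.62 (SE 0.10). The 3 that fell were the lamin B receptor gene Lbr, which is known to be silent in mature sensory neurons, and the chromatin protein genes Hmgb2 (-1.40) and Cbx5 (-0.29). Other chromatin genes of the list rose, among them Trim66 by 0.58 and Suv39h2 by 0.29, or were not called, as were Kdm1a (0.17) and Cbx1 (0.18). Lbr read 8.60, 8.72 and 8.78 against 10.32, 10.68 and 10.84, a fall of 1.91 (SE 0.09, adjusted p = 4.74e-07). Relative to the transduction genes 0 of the 24 were called higher and 14 lower, with a median of -0.35.

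Genes of dividing and precursor cells were lower in GFP-positive cells. Of 27 cell cycle genes 26 fell, 17 of them at least 2-fold, and 0 rose (median -1.17). Mki67, which encodes the proliferation antigen Ki-67, read 6.17, 6.48 and 6.66 in GFP-positive cells and 9.73, 10.47 and 10.26 in GFP-negative cells. Its fractions lay more than 3 log2 units apart, with a difference of -3.72 (SE 0.10). Top2a fell by 2.69. Of 13 neurogenic progenitor genes 8 fell and 0 rose (median -0.40), among them the receptor tyrosine kinase Kit (-2.01), the neurogenic factor Neurod1 (-1.21) and Lgr5 (-0.73). Proliferating leukocyte precursors share the cell cycle genes, and their part was not tested.

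Genes of immature neurons did not move together. Of 18 genes 7 rose, 6 fell and 5 were not called, with a median of 0.12 that turned to -0.02 with cyclic loess scaling. The 38.9% that rose and the median were near the 32.9% and 0.13 of all genes. The share that fell was 33.3%, against 18.5% of all genes. Gap43, the growth-cone protein that marks immature neurons, read 8.59, 8.33 and 8.47 against 9.32, 8.93 and 8.996. Its highest GFP-positive array lay below its lowest GFP-negative array, and it fell by 0.62 (SE 0.10, adjusted p = 0.00107). Gng8 (-0.90) and Stmn1 (-0.80) fell as well, whereas the microtubule genes Tubb3 and Dcx rose by 0.69 and 0.62. Cxcr4, a chemokine receptor shared by progenitors and leukocytes, fell by 3.80.

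Genes of supporting and gland cells were lower in GFP-positive cells. Of 17 sustentacular genes 15 fell, 1 rose and 1 was not called (median -1.50). Cyp2g1, a cytochrome P450 of sustentacular cells and glands, read 10.81, 11.42 and 10.68 against 12.70, 12.89 and 12.67. Pool 3 was highest in both fractions, which did not overlap, and the difference was -1.78 (SE 0.12, adjusted p = 4.54e-06). Sult1c1 (-2.81) and Cyp1a2 (-2.55) fell as well, as did the keratin gene Krt18 (5.64-fold), and Sult1d1 rose by 0.23. Of 18 Bowman's gland genes 12 fell and 1 rose (median -0.83), with Sox9 at -1.88 and the secretoglobin Scgb1c1 at -1.66. Of 16 horizontal basal cell genes 8 fell and 8 were not called. Krt5, the defining keratin of these cells, had a difference of -0.40 (SE 0.12) whose call was lost without pool 2 or pool 3.

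Microvillous cell genes fell further. Trpm5, the cation channel of tuft-like microvillous cells, read 6.67, 6.82 and 6.96 in GFP-positive cells and 10.22, 10.18 and 10.28 in GFP-negative cells. It fell 10.6-fold, and each GFP-negative array was more than 3 log2 units above every GFP-positive one. Of 13 tuft cell genes 12 fell (median -2.31), and the 1 that rose, Gng13, also belongs to odor transduction. Alox5, the lipoxygenase of leukotriene synthesis, fell by 3.68. Of 10 genes of ionocyte-like microvillous cells 8 fell and 1 rose (median -1.60), with the transcription factor Foxi1 at -1.61 and Hepacam2 at -2.90.

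Leukocyte genes showed the steepest falls in the comparison. All 18 neutrophil genes fell, each at least 2-fold, with a median difference of -4.17. Their mean level was 7.00, 7.60 and 8.12 in the GFP-positive arrays of pools 2, 3 and 4 and 11.20, 11.63 and 11.72 in the GFP-negative arrays. Mmp8, neutrophil collagenase, read 5.59, 6.34 and 7.64 against 11.17, 11.62 and 12.18. It fell 35.2-fold (difference -5.14, SE 0.21, adjusted p = 2.13e-07), and its GFP-positive values spread over 2 log2 units, with pool 4 the highest. The chitinase-like gene Chil3 fell 30.9-fold, the chemokine receptor gene Cxcr2 25.9-fold and the surface antigen gene Ly6g fell by 4.64 to a GFP-positive mean under the lower quartile.

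All 27 macrophage and antigen presentation genes fell, 25 of them at least 2-fold (median -3.17). The mean level of that list was 7.50 to 7.61 in GFP-positive and 10.17 to 10.75 in GFP-negative arrays. Ptprc, the pan-leukocyte antigen CD45, read 6.79, 7.07 and 7.38 against 11.02, 11.39 and 11.63 and fell 19.3-fold. Itgam fell 21-fold and the class II antigen gene H2-Aa 18.9-fold. Of 18 B and plasma cell genes 15 fell and 1 rose, the latter being Ebf1, which sensory neurons also use. Cd79a, a chain of the B cell receptor, read 7.27, 7.40 and 7.62 against 11.51, 11.72 and 11.94. The immunoglobulin segment Igkv10-96 read 4.96, 4.92 and 4.02 in GFP-positive cells and had a difference of -5.25 (SE 0.30). Its GFP-positive arrays lie far under the lower quartile, so no fold is given. Of 19 T and NK cell genes 16 fell (median -0.74), led by Il7r at -3.76, and 8 of 9 erythroid genes fell (median -0.86). Cd24a, a surface glycoprotein of developing blood cells and other precursors, read 6.54, 7.19 and 7.44 against 11.77, 12.13 and 12.48 and fell 33.7-fold.

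Most stromal markers were not called. Of 18 fibroblast genes 4 fell and 14 were not called (median -0.07, or 0.04 without pool 3), and of 16 endothelial genes 5 fell and 11 were not called (median -0.08), and 3 fell without pool 3. The shares that fell were 22.2% of fibroblast, 31.25% of endothelial and 20% of mural (smooth muscle and pericyte) genes. Of all genes 18.5% fell, so the fibroblast and mural shares were near that of all genes. Dcn, a collagen-binding proteoglycan, fell by 2.07 and Pecam1, an adhesion molecule of endothelium and leukocytes, fell by 1.60. Of 14 ensheathing glia genes 7 fell and 0 rose, with the neuregulin receptor gene Erbb3 at -1.76. Rgs5, a pericyte marker, stood out in the mural list. It read 7.90, 7.71 and 7.72 against 11.94, 11.97 and 12.00 and fell 18.3-fold, while 7 of the 10 mural genes were not called.

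Some housekeeping systems also differed. Of 60 genes of the cytosolic ribosome 52 fell and 0 rose (median -0.75). Rplp0 read 10.54, 10.34 and 10.46 in GFP-positive cells and 12.00, 12.22 and 12.35 in GFP-negative cells, a fall of 1.74 (SE 0.11). Of 91 respiratory chain genes, assembly factors included, 56 rose and 2 fell (median 0.29), and of 77 mitochondrial ribosomal genes 37 rose and 2 fell (median 0.23). The shares that rose were 61.5% and 48.1%, against 32.9% of all genes with a median of 0.13. The 4 largest rises among the former were those of Ndufaf4 (0.74), Ndufaf5 (0.69), Ndufaf7 (0.65) and Ndufa4 (0.63). These small shifts depended on the scaling: with cyclic loess 29 respiratory chain genes rose and 5 fell, and 14 mitochondrial ribosomal genes rose and 7 fell. They also depended on single pools, since 34 and 35 respiratory chain genes rose without pool 3 and without pool 4, and 23 and 22 mitochondrial ribosomal genes.

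In glycolysis, the members split in direction, with 7 of 16 genes higher (4 without pool 3) and 6 lower. These shares were 43.75% and 37.5%, against 32.9% and 18.5% of all genes. The glucose transporter gene Slc2a3 read 6.63, 7.03 and 7.19 against 10.09, 10.47 and 10.73 and fell 11.2-fold, the lactate dehydrogenase gene Ldha fell 4.76-fold and the hexokinase gene Hk2 2.63-fold. The neuronal enolase gene Eno2 read 10.18, 9.99 and 10.07 against 9.43, 9.06 and 8.79 and rose by 0.99, and Ldhb rose by 0.61. Of 39 proteasome genes 16 rose and 3 fell, and with cyclic loess 3 rose and 4 fell. Their median of 0.15 was near the 0.13 of all genes, and 41.0% rose, against 32.9% of all genes. The rises numbered 10, 5 and 3 without pool 2, 3 and 4. The 3 that fell were the subunits of the immunoproteasome, Psmb8 (-2.43), Psmb10 (-0.77) and Psmb9 (-0.75).

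Interferon-stimulated genes split in the same list. Of 15 genes 8 fell, among them Ifitm3 (-4.44), and 3 rose. Ifit1, an RNA-binding antiviral protein, read 9.32, 9.27 and 9.52 against 8.40, 7.98 and 8.20. It rose by 1.18 (SE 0.13, adjusted p = 8.62e-05), Ifit2 rose by 0.80 and Mx2 by 0.59. Of 16 heat shock genes 7 fell and 2 rose, with the chaperone genes Dnajb1 at -1.41 and Hspa1a at -1.30. Of 165 genes of biotransformation, the enzymes that modify odorants and toxins, 51 fell, 31 rose and 83 were not called, while 18 rose without pool 3 and 14 without pool 4. The median of 0.06 turned to -0.40 among the 78 genes that passed a filter on low values. Gstp1 fell 5.95-fold and Sult1e1 by 3.20, to a GFP-positive mean of 4.37 under the lower quartile, while no member rose 2-fold.

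Odorant receptors, the largest family of the array, moved in both directions and over the widest range. Of 1027 receptor genes, 11 of them named as pseudogenes, 618 rose, 129 fell and 280 were not called, with a median difference of 0.66. Relative to the transduction genes 361 were higher and 320 lower, with a median of 0.07. Olfr309 read 11.10, 10.33 and 10.50 in GFP-positive cells and 7.50, 6.51 and 6.56 in GFP-negative cells. The fractions were almost 3 log2 units apart at their nearest arrays, with a difference of 3.78 (SE 0.13, adjusted p = 8.19e-08). Olfr1297 read 4.69, 6.46 and 6.26 against 10.75, 10.18 and 10.67, a difference of -4.73. Its gap ran from -3.71 to -6.06 over the pools, and the GFP-positive values of pools 2 and 4 lie under the lower quartile of their arrays, so no fold is given. The median SE of a receptor's difference was 0.17, against 0.09 over all genes. Receptor genes are close paralogues, so a single receptor's value is uncertain where its probes also bind relatives.

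The promoter of Olfr1297, the receptor with the lowest measured difference, is shown with TAATTA in capitals, a homeodomain core found near receptor genes.
Olfr1297 (chr2:111622073-111622322, minus strand): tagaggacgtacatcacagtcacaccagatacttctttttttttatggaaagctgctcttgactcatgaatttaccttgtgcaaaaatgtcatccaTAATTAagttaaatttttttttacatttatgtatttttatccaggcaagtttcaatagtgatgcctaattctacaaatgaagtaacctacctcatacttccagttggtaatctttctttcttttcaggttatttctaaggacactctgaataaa
TAATTA was in 18% of the 870 windows of odorant receptors and in 4.03% of all windows. The other motifs shown here were rarer in receptor windows than in all windows. CCCNNGGG was in 2.64% against 13.9%, TGACG in 4.14% against 21.4% and GTTGCC in 3.33% against 10.2%. TAATTA holds only A and T, and the base composition of the windows was not tested.

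Most larger genomic clusters of receptors held both directions. RefSeq gene order placed the 1027 receptors in 49 clusters, split at gaps over 1000000 bases, of which 21 held 10 or more. Of 39 clusters with at least 2 receptors 21 held receptors called in both directions, in 5 all receptors rose and in 1 all fell. All 17 receptors from Olfr522 to Olfr541 on chromosome 7 rose, by 0.54 to 3.18 (median 1.58). In the chromosome 7 cluster from Olfr310 to Olfr292, 2 of 15 rose and 5 fell (median -0.44), although it holds Olfr309. The cluster from Olfr20 to Olfr412 on chromosome 11 was evenly divided, with 10 of 27 higher and 10 lower. Class I receptors, an evolutionarily old group on chromosome 7, had a median of 0.45 with 60 of 116 higher and 10 lower. Class II receptors had a median of 0.71 with 558 of 911 higher and 119 lower. The difference between the classes was not tested, and relative to the transduction genes their medians were -0.14 and 0.13.

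Pairs of receptors, neighbouring or not, were called in the same direction more often than in opposite directions, though the gap of some neighbours was wide. Of 978 adjacent pairs 115 were called in opposite directions (11.8%, against 15.1% of all pairs of receptors) and 413 in the same direction (42.2%, against 37.8%). These shares are descriptions, and their difference was not tested. Pairs with an uncalled receptor are included, and the shares of all pairs follow from the counts of receptors called higher and lower. The median gap between adjacent receptors was 0.88 log2 units, against 1.01 over all pairs of receptors. Olfr494 read 10.23, 9.98 and 9.84 in GFP-positive cells and 7.23, 7.09 and 6.38 in GFP-negative cells, a rise of 3.12. Its neighbour Olfr495 read 4.84, 5.19 and 4.31 against 8.01, 7.40 and 8.29, a difference of -3.12. The GFP-positive arrays of Olfr495 lie far under the lower quartile, so that size is of the measured signals only. Olfr728 fell by 3.69 and its neighbour Olfr729 rose by 2.74. Both pairs were picked for their gap, which is a description.

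**Figure D4:**
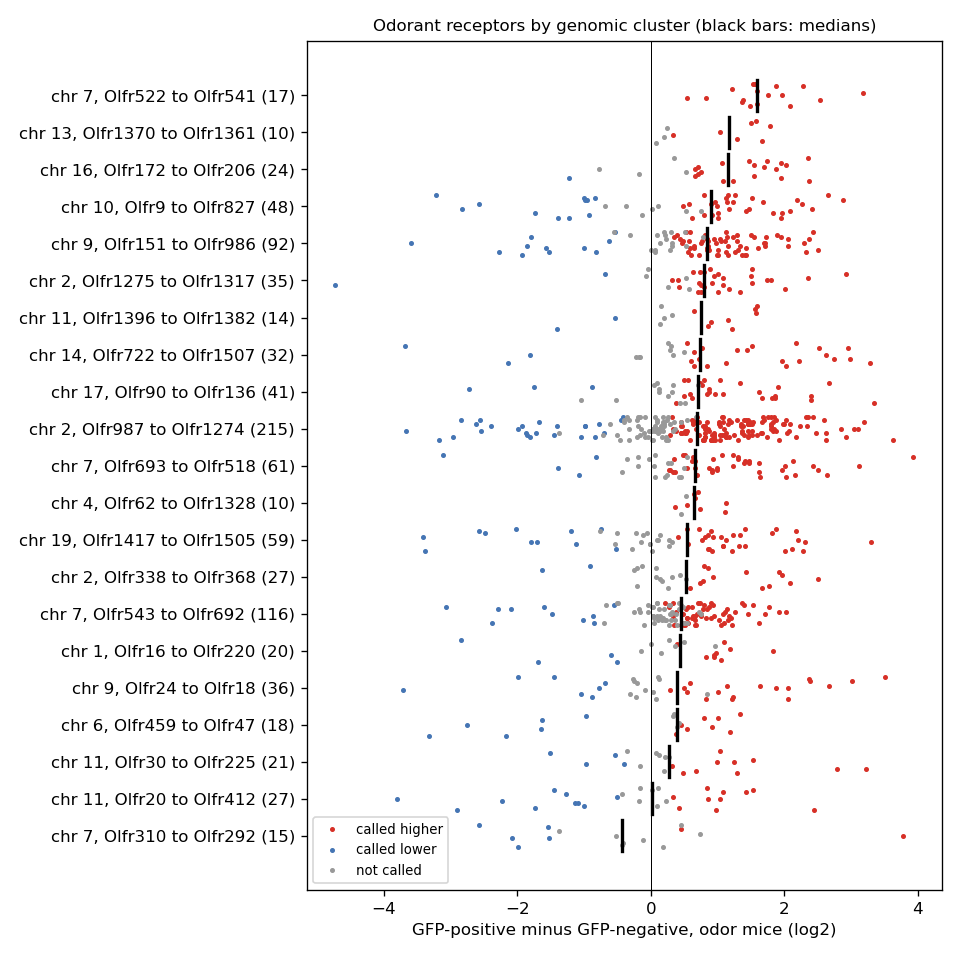
Difference between GFP-positive and GFP-negative cells (log2, odor mice) for odorant receptors of the 21 genomic clusters with 10 or more receptors, ordered by cluster median (black bars, n in brackets). The top cluster, Olfr522 to Olfr541, holds 17 receptors called higher (red), and the other clusters mix higher, lower (blue) or uncalled (grey) receptors.

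More trace amine receptors rose than fell, and few vomeronasal receptors were called. Of 13 trace amine receptors 7 rose and 1 fell, and 4 rose without pool 4 or without the pool as a block. The share that rose was 53.8%, against 32.9% of all genes. With the filter on low values 8 of these receptors remained, of which 6 rose and 0 fell. Taar9 read 9.82, 10.13 and 9.48 against 8.91, 8.16 and 7.58 and rose by 1.59 (SE 0.19). Taar4 rose by 1.57, and Taar2 fell by 1.26 (SE 0.29). Of 119 type 1 vomeronasal receptors 12 rose and 107 were not called, and of 46 type 2 receptors 3 rose, with differences of at most 0.35 and 0.30. These shares of 10.1% and 6.52% lie under the 32.9% of all genes, and the medians of 0.11 and 0.13 are near that of all genes. The count of type 1 receptors ranged from 3 without pool 4 to 27 with equal array medians and that of type 2 receptors from 0 to 10, and no type 1 receptor passed the filter on low values. These receptors belong to the vomeronasal organ, and their list means were 4.15 to 4.17 and 4.29 to 4.34 in GFP-positive arrays. Of 19 Ms4a genes, some of which serve as receptors in guanylyl cyclase D neurons, 11 fell and 2 rose. The members that fell include Ms4a1, the B cell antigen CD20, at -4.57, and other genes known from leukocytes. Of 6 genes listed for those neurons 1 rose, 1 fell and 4 were not called, with differences from -3.23 to 0.35. Without pool 2 or without pool 4, 0 of the 6 rose. The guanylyl cyclase gene Gucy2d, which defines those neurons, had a difference of 0.21 and was not called.

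The difference between fractions was compared with that in vehicle mice, the only other sort in the series. Vehicle mice gave 9513 called genes, 5914 higher and 3599 lower. Of the genes higher in odor mice 5122 of 6556 were also called higher in vehicle mice, and 3269 of 3687 were lower in both, while 1 gene was called in opposite directions. Both comparisons share the estimate of spread of each gene, so their calls are not independent. Of the 46 list medians 37 differed by at most 0.1 between odor and vehicle mice, as for activity-dependent genes (1.05 and 1.04) and neutrophil genes (-4.17 and -4.26). The median of all genes was 0.13 and 0.06. Larger gaps were those of macrophage (-3.17 and -2.91), B and plasma cell (-2.51 and -2.32), erythroid (-0.86 and -1.03) and Ms4a genes (-1.37 and -1.21). Gaps of Bowman's gland (-0.83 and -0.69), mast cell and basophil (-0.55 and -0.44) and channel genes (0.22 and 0.10) were also over 0.1. In sign 3 lists with small medians differed: guanylyl cyclase D neurons (0.22 and -0.05), biotransformation (0.06 and -0.03) and cartilage and bone (0.10 and -0.04). The test of the change itself, odor minus vehicle, called 0 of 19938 genes (0%) in limma, and 932 had an unadjusted p under 0.05.

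The smallest adjusted p of that test belonged to the receptor gene Olfr747. In odor mice it read 7.51, 8.05 and 7.56 in GFP-positive cells and 5.80, 5.73 and 5.55 in GFP-negative cells. All GFP-positive arrays were above all GFP-negative ones, and the difference was 2.02 (SE 0.15). The GFP-negative arrays lie under the lower quartile of the genes compared, so that size is of the measured signals only. In vehicle mice the difference was -0.15. The change of 2.17 (SE 0.21) had an adjusted p of 0.0526 in limma, and from 0.0152 to 0.45 over the alternatives tried. Next in order were Cables2, Olfr1208, Olfr292 and Olfr420, each with an adjusted p of 0.819. Olfr1208 fell by 1.99 in odor mice and had a difference of -0.73 in vehicle mice, and Olfr420 had 0.15 in odor and 1.24 in vehicle mice.

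**Figure D5:**
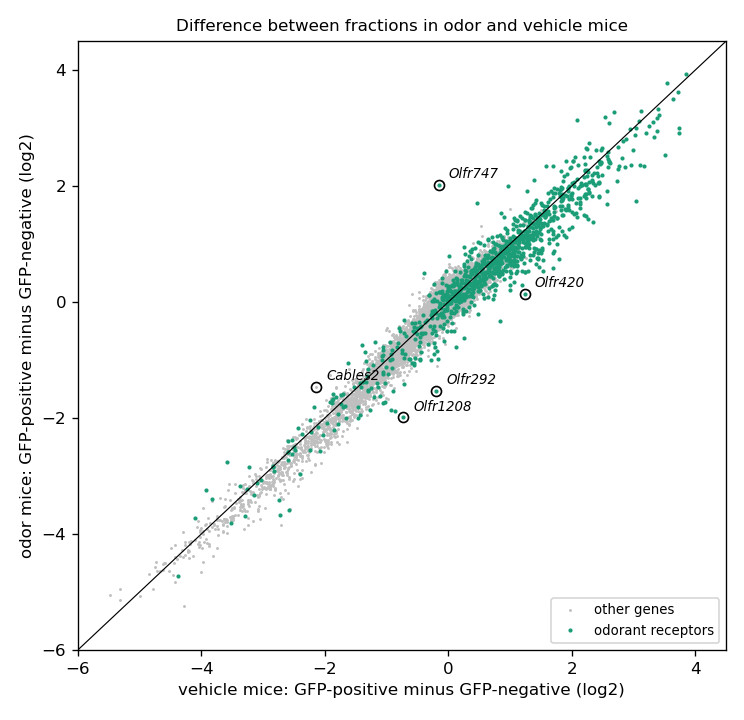
Difference between GFP-positive and GFP-negative cells in vehicle mice (horizontal axis) and odor mice (vertical axis), log2, for 19938 genes, with odorant receptors in green and a line of equal differences. The 5 genes with the smallest p of the change are circled, and Olfr747, at 2.02 in odor and -0.15 in vehicle mice, lies farthest above the line among them.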

How the data were processed

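The authors deposited 1 table of log2 values from Mouse Gene 1.0 ST arrays, which were summarised in Affymetrix Expression Console, as named in the submitters' processing notes. Software version, background method and scaling between arrays were not stated in any source read. The 12 arrays were used as deposited, with 0 columns of other samples. Array signal gives no depth, so precision rests on the number of arrays. The number in the title pairs fractions of the same 3 mice; deviations from the group means correlated in same-numbered odor arrays (r = 0.252, 0.172 and 0.124).

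Of 35556 probe sets 21789 carried 1 symbol, 1621 several and 12146 none, and only the first were used. For 999 genes with several probe sets the one with the highest mean was kept, and low values were not filtered. Gene names came from the platform annotation, with 21698 of the identifiers matched to RefSeq and 91 not, and promoters from RefSeq (GRCm38.p6). A single linear model in limma 3.58.1 (R 4.3.3) held all 12 arrays with the pool as a fixed block, and its moderated tests, all two-sided, were adjusted by Benjamini-Hochberg. Residual degrees of freedom were 4. Vehicle arrays share the estimate of spread. The script was tested on simulated data. Tables and figures came from pandas 2.3.3, numpy 2.4.6 and matplotlib 3.10.9 under Python 3.11.15.

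The members, the 46 lists and the tests were chosen with earlier results of these data known. Lists were described by counts and medians, and some genes are on more than 1 list. Genes were named by rule: the 15 largest rises and falls outside the receptor families and the 8 largest among odorant receptors, up to 4 members of each list, 11 genes always, and the 5 smallest p of the odor minus vehicle change. Predicted, small RNA and mitochondrial genes were not named. Adcy3, Stoml3, Plcxd3, Pcp4l1, Rasgrp4, Npas4, Ttc21b, Foxj1, Hydin, Sntn, Dnah1, Dnah3, Dnah6, Dnah12, Plxna3, Sema7a, Cbx5, Tubb3, Dcx, Sult1d1, Gng13, Ebf1, Eno2, Ldhb, Ifit2, Mx2, Gucy2d, Olfr494, Olfr495, Olfr729, Olfr1020 and Olfr901 are outside the rule and were chosen after their values were seen. A planned comparison of receptors alike in protein sequence was not run, since no protein sequences were used here.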

Additional observations from a re-analysis of the deposited data

How the results depend on the processing

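The pool as a replicate block changed the counts over all genes little. Without a replicate block 6687 genes were higher and 3729 lower, of 214 named genes only Vmn2r9 lost its call, and trace amine receptors went from 7 to 4 higher. The 6 odor arrays alone gave 5880 higher and 3480 lower with the block, and 5817 and 3456 without it. Cyclic loess gave 4129 higher genes, as stated above. Leaving out 1 odor replicate gave 4535 to 5644 higher and 3104 to 3587 lower genes, and at least 2-fold 389 to 655 higher and 1448 to 1674 lower, the 655 being without replicate 2. The odor minus vehicle change was called for 1 gene, Olfr747, without the block, with equal array medians, with array weights and with a trend and robust prior. Leaving out a replicate gave 0 to 2 genes: Olfr747 without replicate 2, and Olfr1020 and Olfr901 without replicate 3. Among named genes no direction turned under the alternatives, with 1 exception, the scaling to transduction genes, which was added after the data were seen. There Hdac9 was at -0.092, Kirrel3 at -0.26, Omp at -0.26, S100a5 at -0.28 and Trib3 at -0.019. Leaving out replicate 4 ended the calls of 14 of the 214, and cyclic loess those of 10. The cause of these changes was not tested. The list medians of unfolded protein, biotransformation and proteasome genes also turned with cyclic loess, to -0.04, -0.05 and -0.03. Many list counts that moved by over 1.5 times without 1 pool stand beside those lists above, but not all. The 2 Ms4a genes called higher became 1, 1 and 0 without replicates 2, 3 and 4. The 2 heat shock genes called higher became 1 without replicate 3. The single Bowman's gland and ionocyte-like microvillous genes called higher lost that call without any of the replicates, and the sustentacular one without replicate 3 or 4. Depth is unknown for array signal, and low values carry no detection call.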

Other observations

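Probe sets outside the gene comparison differed between the fractions as well. Of 12146 probe sets without a symbol in the annotation used, 1521 were called higher and 833 lower in GFP-positive cells of odor mice, and 94 and 247 of them were at least 2-fold apart. Their largest rise was 3.05 and their largest fall reached -5.14. Of 1621 probe sets with several symbols 203 were higher and 488 lower, from -5.06 to 2.74. Which transcripts these probe sets report was not tested.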
